A study of Mus musculus with 18 samples.

Results

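The 5 genes described here, Nfkb1, Nfkb2, Rel, Rela and Relb, encode the subunits of the transcription factor NF-kB. They were chosen by gene symbol from a table of 45777 genes, without a cutoff on their values but with earlier results of these data known. All 5 were among the 17159 genes with enough counts to be tested.

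Messenger RNA was sequenced from mouse mast cells that had been differentiated in culture from marrow of the femur and tibia (BMMC), a common stand-in for mast cells of tissue. Both genotypes carried Sirt6 flox/flox alleles, that is, Sirt6 flanked by recombination sites, and the KO cells carried LysM-Cre in addition, a recombinase driven by the lysozyme M promoter of myeloid cells. Samples are labelled 0, 20 or 60, here called levels because no unit is stated. LPS, the bacterial lipid sensed by TLR4, is named in the labels of 20 and 60, while the series title refers to FcεRI, through which mast cells respond to IgE. The groups were therefore WT (Sirt6 flox/flox) at 0, 20 and 60 and KO (LysM-Cre with Sirt6 flox/flox) at 0, 20 and 60. There were 3 libraries in each of these 6 groups, and the numbers 4120, 414 and 6110 recur in all of them. Ages are not stated, nor is it stated whether a number marks its own animal or culture. The p-values therefore speak only to the variation among these libraries, some of which may be technical. The design text gives the question as which transcripts change with Sirt6 deficiency.

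NF-kB proteins bind DNA as dimers through a shared Rel homology domain. Rela, Rel and Relb also carry a domain that activates transcription, whereas Nfkb1 and Nfkb2 encode precursors that are processed to DNA-binding subunits lacking it. In resting cells inhibitor proteins of the IkB family hold the dimers in the cytoplasm, and kinases activated by receptors such as TLR4 and FcεRI release them. Several subunit and inhibitor genes are known targets of NF-kB itself, and in mast cells the pathway drives cytokine transcription.

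Total counts per library ran from 20026054 to 42265435. Genes of mitochondrial DNA took between 4.09% and 41.9% of the counts, and 5 libraries were over 20%: number 4120 in WT at 0 and 20, and number 414 in WT at 60, KO at 0 and KO at 60. The targeted gene Sirt6 was counted at group means of 10.7 to 14.7 CPM (counts relative to the total of the library) in WT and 11.8 to 17.1 CPM in KO. Which exons were removed is not stated, so this count over the whole gene cannot check a genotype label. Lyz2 is the lysozyme M gene at which Cre is inserted. Summed over the 3 libraries of a group, it had 156, 172 and 186 reads in WT at 0, 20 and 60 and 9, 10 and 6 in KO. The difference between KO and WT did not pass at 0, 20 or 60 (edgeR adjusted p = 0.10, 0.17 and 0.087). All 9 mast cell markers were present in every group, with a sum of 15520 to 45908 CPM per library, and the sums of B cell and of T cell markers did not exceed 0.689 CPM in any library.

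By the RefSeq annotation of GRCm38.p6, Nfkb1 (gene ID 18033) lies on chromosome 3 from 135584655 to 135691969 on the minus strand. Rel (19696) lies on chromosome 11 from 23736847 to 23770969 and Relb (19698) on chromosome 7 from 19606217 to 19629438, both on the minus strand. Nfkb2 (18034) and Rela (19697) share chromosome 19, on the plus strand, from 46300994 to 46312400 and from 5637442 to 5648134. The strands of these genes were taken from the GENCODE annotation. The RefSeq table of promoter windows, each from 250 bases before to 50 bases after a transcription start, holds Rel, Rela and Nfkb2, that is, 3 of the 5 genes. These windows were searched on both strands for the kB consensus, the motif of 10 bases that NF-kB dimers bind, with overlapping matches merged into 1 place. It was found in 4.51% of all 32851 windows of this length. The single Rela window held no match, which says only that these letters are not in it, while the Rel window held 1 place and the 3 Nfkb2 windows 4 places.

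The stretches with these places are shown because Rel and Nfkb2 are among the subunits whose transcripts rose in the results. Each is written 5′ to 3′ on the strand of the gene, and capitals mark the bases that match the kB consensus. The Rel stretch (chr11:23770970-23771119, minus strand) ends at the base before the transcription start, and its match begins 92 bases before that start.
Rel: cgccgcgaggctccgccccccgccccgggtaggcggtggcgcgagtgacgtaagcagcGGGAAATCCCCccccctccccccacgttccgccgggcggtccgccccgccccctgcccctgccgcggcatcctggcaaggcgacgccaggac
The Nfkb2 matches a and b (chr19:46304689-46304718 and chr19:46304716-46304745, plus strand) begin 39 and 11 bases before the start at 46304737. Match c (chr19:46305449-46305478) begins 236 bases before the start at 46305695. Match d (chr19:46305695-46305724) lies just after that start and begins 225 bases before the start at 46305930.
Nfkb2 a: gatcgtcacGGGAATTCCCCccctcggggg
Nfkb2 b: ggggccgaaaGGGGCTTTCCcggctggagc
Nfkb2 c: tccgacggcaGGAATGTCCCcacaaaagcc
Nfkb2 d: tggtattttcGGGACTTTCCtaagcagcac
A match of letters is a description, and binding was not measured in these libraries. In the same RefSeq table, 8 of the 11 genes with a window on a list of IkB proteins and other inhibitors held the consensus, as did 6 of 13 known targets, 3 of 17 upstream kinases and adaptors and 0 of 7 coregulators. Of all 27025 genes with a window, 5.14% held it in at least 1 window.

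Levels were compared between subunits with the deposited TPM, a relative abundance that takes gene length into account. Rel was the lowest of the 5 in all 18 libraries, between 3.77 and 39.0 TPM. Relb, at 17.6 to 108 TPM, was above Rel in all 18 and below Nfkb2 in all 18. Nfkb1, at 47.9 to 188 TPM, was above Rela in 17 of 18 libraries and above Nfkb2 in 16. Nfkb2 was above Rela in 6 of 18, so these neighbours had no fixed order, and Rela was above Relb in 17. The order Nfkb1, Rela, Nfkb2, Relb, Rel held in 11 libraries, including all 6 at level 20.

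As a share of the summed TPM of the 5 subunits, the classical pair of Rela and Nfkb1 made up 59.1% ± 2.37 in WT at 0 (SD, n = 3), then 62.8% ± 2.18 at 20 and 51.2% ± 9.40 at 60. The same pair in KO made up 63.8% ± 5.66 at 0, 67.0% ± 0.596 at 20 and 50.6% ± 5.08 at 60. All 3 KO libraries at 60, at 44.8% to 53.7%, lay below all KO libraries at 0, at 59.6% to 70.2%. Relb, the partner of the Nfkb2 product in the alternative pathway, held 12.6% ± 2.80 in KO at 0 and 18.7% ± 3.24 at 60, and its ranges of 9.42% to 14.7% and 16.7% to 22.4% did not overlap. Nfkb2 held 27.6% ± 2.60 in WT and 20.0% ± 3.66 in KO at 0, without overlap, and 31.7% ± 6.56 and 24.9% ± 2.09 at 60, where the groups overlapped. Rel held 2.72% ± 0.507 in WT and 3.60% ± 0.624 in KO at 0. These shares are given as a description and were not tested.

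**Figure D1:**
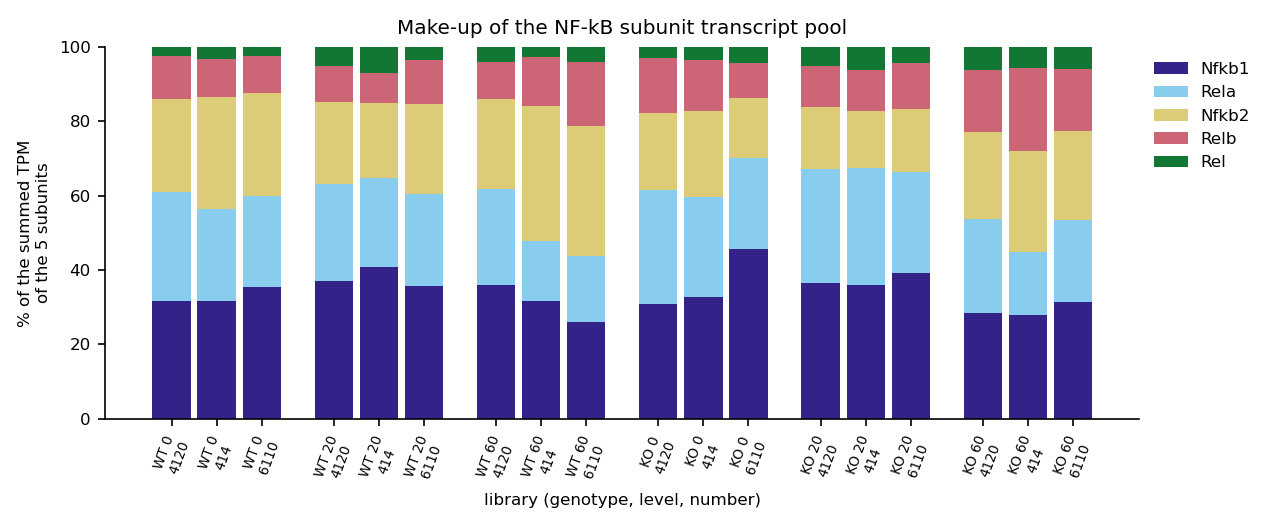
Share of each subunit in the summed TPM of the 5 NF-kB subunits, in percent, for each of the 18 libraries grouped by genotype and level. The Rela and Nfkb1 segments together are shortest in KO at 60 (44.8% to 53.7%) and in 2 of the 3 WT libraries at 60.

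In KO cells at 60, Rel, Relb and Nfkb2 transcripts rose against KO cells at 0, by 3.36-fold, 3.11-fold and 2.59-fold. No subunit passed the test at 20 in either genotype, at 60 in WT, between KO and WT at any level, or in the difference between the genotypes' responses. All values below are CPM on library sizes scaled by TMM factors, and genes were called at a Benjamini-Hochberg adjusted p under 0.05 in edgeR over all genes tested. The 3 calls in KO at 60 compare with 2.54% of all genes tested, or 1.98% counting only genes that rose. The median log2 fold change there was 1.37 over the 5 subunits and 0.0011 over all genes. In bulk RNA, fewer cells of a type and less RNA per cell cannot be told apart.

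Rela encodes the activating subunit of the classical dimer. In WT it was counted at 96.1, 81.1 and 116 CPM at 0, at 113, 132 and 126 CPM at 20, and at 132, 71.7 and 139.5 CPM at 60, in the order 4120, 414 and 6110. In KO it was counted at 114, 88.9 and 115 CPM at 0, at 152, 145 and 136 CPM at 20, and at 201, 113 and 205 CPM at 60. Number 414 was the lowest library in WT at 0 and 60 and in KO at 0 and 60. The KO libraries at 20 lay above all KO libraries at 0 in CPM. In TPM, KO at 20 number 414 (92.5) lay below KO at 0 number 6110 (98.8). The log2 fold change in KO at 60 was 0.71 (95% interval 0.16 to 1.25), which did not pass (edgeR adjusted p = 0.19). The other Rela fold changes did not pass either, at 0.44 for KO 20, 0.34 for WT 20 and 0.23 for WT 60. Rela was also the subunit whose log2 CPM varied most with the log2 mitochondrial share of the libraries, with r = −0.75 over 18 libraries that share groups and numbers, compared with −0.66 for Nfkb1, −0.53 for Rel, −0.20 for Relb and 0.34 for Nfkb2. The part of that share in the results was not tested beyond the alternatives given with them.

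Rel encodes c-Rel, an activating subunit best known from lymphoid and myeloid cells. In WT it was counted at 23.1, 30.3 and 31.4 CPM at 0, at 60.2, 106 and 51.5 CPM at 20, and at 58.8, 34.2 and 85.1 CPM at 60. In KO it was counted at 31.7, 32.4 and 55.8 CPM at 0, at 72.5, 78.2 and 59.5 CPM at 20, and at 141, 104 and 158 CPM at 60. In CPM every library at 20 or 60 lay above every library at 0 of the same genotype. In TPM this did not hold. There WT at 60 number 414 (5.12) lay within WT at 0 (3.77 to 8.24). KO at 20 number 6110 (15.95) and KO at 60 number 414 (15.2) lay below KO at 0 number 6110 (17.1). Libraries of 1 genotype and 1 number are called a numbered set here, and whether such a set is 1 culture is not stated. In all 6 numbered sets both 20 and 60 were above 0 for Rel in CPM. The share of all genes with that pattern was not determined. In KO at 60 Rel rose by 1.75 on the log2 scale (SE 0.34, edgeR adjusted p = 0.0099). Its call was lost without KO at 0 number 4120 (edgeR adjusted p = 0.068) or number 414 (0.082), where the log2 fold change was 1.60 and 1.61.

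The changes of Rel at 20 were a log2 fold change of 1.36 in WT (95% interval 0.64 to 2.08, edgeR adjusted p = 0.12) and of 0.81 in KO (0.10 to 1.52, edgeR adjusted p = 1). The WT value had an unadjusted edgeR p of 0.00099 and passed with DESeq2 (1.35, adjusted p = 0.0084) and with the log2 mitochondrial share as a covariate in edgeR (1.21, adjusted p = 0.048). In WT at 60 the log2 fold change was 1.07 (edgeR adjusted p = 0.28). From 20 to 60 Rel was lower in WT numbers 4120 and 414 and higher in number 6110 and in all 3 KO numbers.

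Relb encodes the activating subunit of the alternative pathway. In WT it was counted at 33.0, 27.5 and 39.4 CPM at 0, at 34.8, 37.6 and 49.4 CPM at 20, and at 43.0, 48.4 and 111 CPM at 60. In KO it was counted at 45.9, 37.9 and 36.5 CPM at 0, at 46.3, 44.0 and 51.3 CPM at 20, and at 116, 125 and 133 CPM at 60. In CPM the 3 KO libraries at 60 were above all other 15 libraries, with an SD of 8.30 around a mean of 125. The share of all genes with this order was not determined, and it depended on the measure. In TPM, KO at 60 was 90.0 ± 25.1 (SD, n = 3), and its number 414 (61.3) lay below WT at 60 number 6110 (71.3). In WT at 60 number 6110 stood well above the other 2. In KO at 60 Relb rose by 1.64 on the log2 scale against 0 (SE 0.29, edgeR adjusted p = 0.0055) and by 1.40 against 20 (SE 0.29, edgeR adjusted p = 0.026). In WT all 3 libraries at 60 were above those at 0 in CPM, though number 414 (24.4 TPM) was not in TPM. The log2 fold change there was 1.02 (95% interval 0.42 to 1.63, edgeR adjusted p = 0.21), and DESeq2 called it (1.02, adjusted p = 0.036). With 1 library left out this value ranged from 0.45, without WT at 60 number 6110, to 1.27, without number 4120 at 60. At 20 the log2 fold changes of Relb were 0.29 in WT and 0.24 in KO. In CPM it was the only subunit that was higher at 20 than at 0 and higher at 60 than at 20 in all 6 numbered sets. By the check of deviations given with the processing, WT at 60 was not paired by number with WT at 0 or 20. The share of all genes with this rise was not determined.

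Nfkb1 encodes the precursor whose product pairs with Rela. In WT it was counted at 162, 160.3 and 259 CPM at 0, at 248, 351 and 281 CPM at 20, and at 289, 218 and 312 CPM at 60. In KO it was counted at 177, 170.3 and 329 CPM at 0, at 284, 255 and 302 CPM at 20, and at 368, 288 and 466 CPM at 60. Number 6110 was the highest library at 0 in both genotypes, and groups at 20 and 60 overlapped those at 0 throughout. The log2 fold change in KO at 60 was 0.73 (95% interval 0.13 to 1.33, edgeR adjusted p = 0.22), and all 3 numbers were higher at 60 than at 0. In WT it was 0.60 at 20 and 0.49 at 60 (edgeR adjusted p = 0.86 and 0.75), and in KO at 20 it was 0.31.

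Nfkb2 encodes the precursor whose product pairs with Relb. In WT it was counted at 180.4, 162 and 198 CPM at 0, at 209, 179 and 211 CPM at 20, and at 179, 284 and 431 CPM at 60. In KO it was counted at 131, 131 and 96.9 CPM at 0, at 116, 135 and 144 CPM at 20, and at 256, 372 and 302 CPM at 60. The KO libraries at 60 were all above those at 0 and 20, which overlapped each other, while WT number 4120 was no higher at 60 than at 0. In KO at 60 Nfkb2 rose by 1.37 on the log2 scale against 0 (SE 0.26, edgeR adjusted p = 0.0092) and by 1.24 against 20 (SE 0.26, edgeR adjusted p = 0.031). In WT at 60 the log2 fold change was 0.72 (95% interval 0.18 to 1.27, edgeR adjusted p = 0.40), and at 20 it was 0.15 in WT and 0.14 in KO. The gene overlaps the 3′ end of Psd (8.01 to 47.3 CPM) on the other strand. It also overlaps the long noncoding RNA 4833438C02Rik (5.21 to 12.6 CPM), whose strand was not established. The strand of counting is not given in the sources used here. In KO at 60 against 0 the log2 fold change of 4833438C02Rik was −0.17 (edgeR adjusted p = 0.90) and that of Psd 1.18 (edgeR adjusted p = 0.085), so reads shared with Psd cannot be told apart from Nfkb2. Nfkb1 overlaps Gm46827, a long noncoding RNA whose strand was also not established and which was counted at 1.35 to 15.2 CPM.

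**Figure D2:**
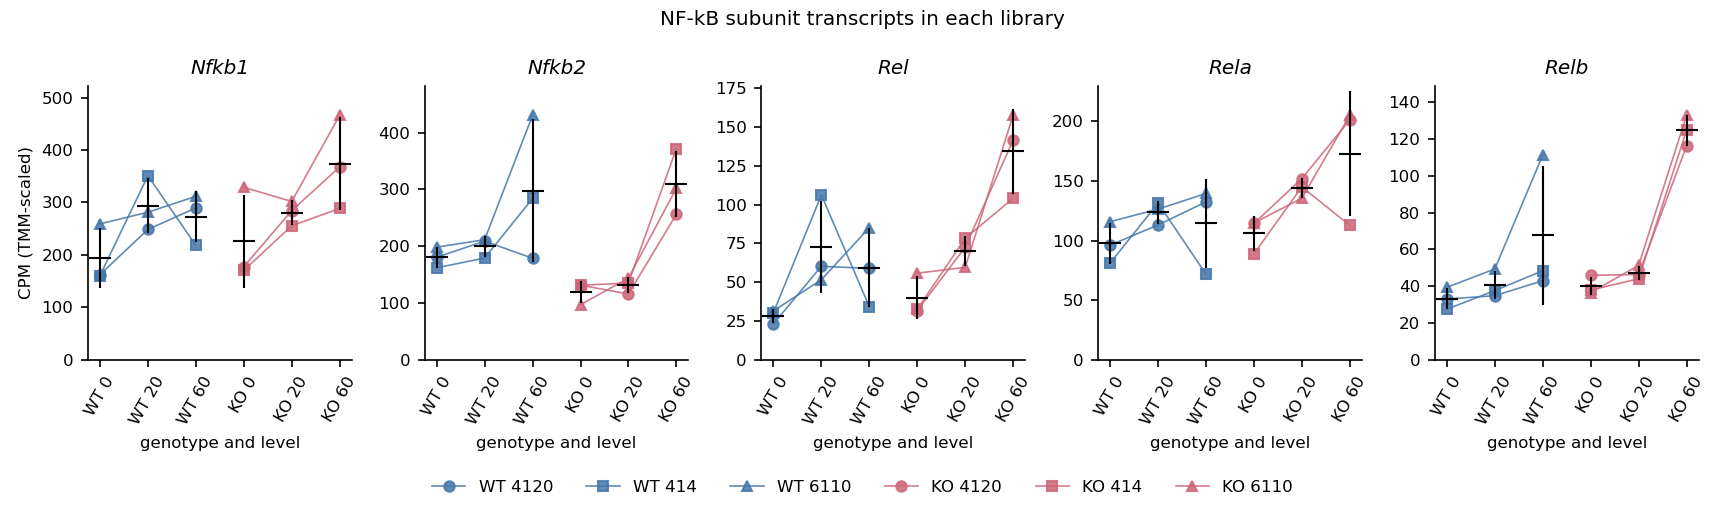
CPM of each subunit in the 18 libraries, with 1 panel per gene and its own scale from 0. Points are libraries, symbols the numbers, thin lines join libraries of 1 genotype and number, and bars are the mean and SD of 3 libraries. The KO libraries at 60 are the 3 highest for Relb (116 to 133 CPM), and WT at 60 is widely spread for Nfkb2 (179 to 431 CPM).

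Counts of calls by comparison were read against all genes. At 20 against 0, 0 of the 5 subunits were called in WT and 0 in KO by edgeR, beside 0.6% and 0.449% of all genes. Rel alone had an unadjusted p under 0.05 in each, beside 991 of all 17159 genes in WT and 553 in KO. At 60 against 0 in WT, 0 subunits were called beside 0.221% of all genes. An unadjusted p under 0.05 was held by 3 (Rel, Relb and Nfkb2), beside 1363 of all 17159 genes. DESeq2 called Rel at 20 and Relb at 60 in WT, beside 1.28% and 1.74% of all genes, and no subunit at 20 in KO, beside 0.832%. All 3 libraries lay above all 3 at 0 for Rel in WT at 20, a pattern of 5.46% of all genes, for Rel and Relb in WT at 60 (5.41%), for Rel and Rela in KO at 20 (4.2%), and for Rel, Relb and Nfkb2 in KO at 60 (9.18%). These patterns are in CPM. In TPM they held for Rel in WT at 20 and for Relb and Nfkb2 in KO at 60, and not for the others. Comparisons at 20 and 60 of 1 genotype share their libraries at 0.

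Between 20 and 60, 2 of 5 subunits were called in KO, beside 1.11% of all genes and 0.746% counting only those that rose, and 0 in WT, beside 0.443%. In WT, Nfkb2 (log2 fold change 0.58) and Relb (0.74) had an unadjusted p under 0.05, beside 1297 of all 17159 genes. DESeq2 called neither in WT, beside 2.23% of all genes. In KO DESeq2 called 2 subunits, beside 3.4% of all genes. The KO groups at 60 and 20 did not overlap in CPM for Nfkb2, Rel and Relb, a pattern of 17.2% of all genes in either direction. In TPM those of Rel overlapped. The calls of Nfkb2 and Relb between 20 and 60 were lost without any single one of the 6 KO libraries at 20 and 60, with edgeR adjusted p of 0.061 to 0.16 for Nfkb2 and 0.072 to 0.15 for Relb, while their log2 fold changes stayed between 1.07 and 1.46.

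The 3 calls at 60 against 0 in KO ended with library size alone as the scaling, which shifted the median of all genes by −0.22: Nfkb2 was then 1.13, Rel 1.53 and Relb 1.40 on the log2 scale, with edgeR adjusted p of 0.052, 0.13 and 0.054. They also ended without the 5 libraries of high mitochondrial share, where 2 libraries of each KO group remained. The log2 fold changes were then 1.29, 1.77 and 1.60 (edgeR adjusted p = 0.16, 0.063 and 0.099). In limma on log2 TPM the 3 calls ended too, with limma adjusted p of up to 0.42 for Nfkb2, 0.40 for Rel and 0.23 for Relb. The mitochondrial share was 13.8% ± 12.0 in KO at 0 and 14.5% ± 17.5 at 60 (SD, n = 3). With the numbered set as a replicate block, 4 subunits rose in KO at 60, beside 10.7% of all genes. Nfkb1 was then called at 0.76 (edgeR adjusted p = 0.038), and Rela was at 0.68 (0.057). Between 20 and 60 in KO the same 2 subunits were called with the block, beside 5.68% of all genes.

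**Figure D3:**
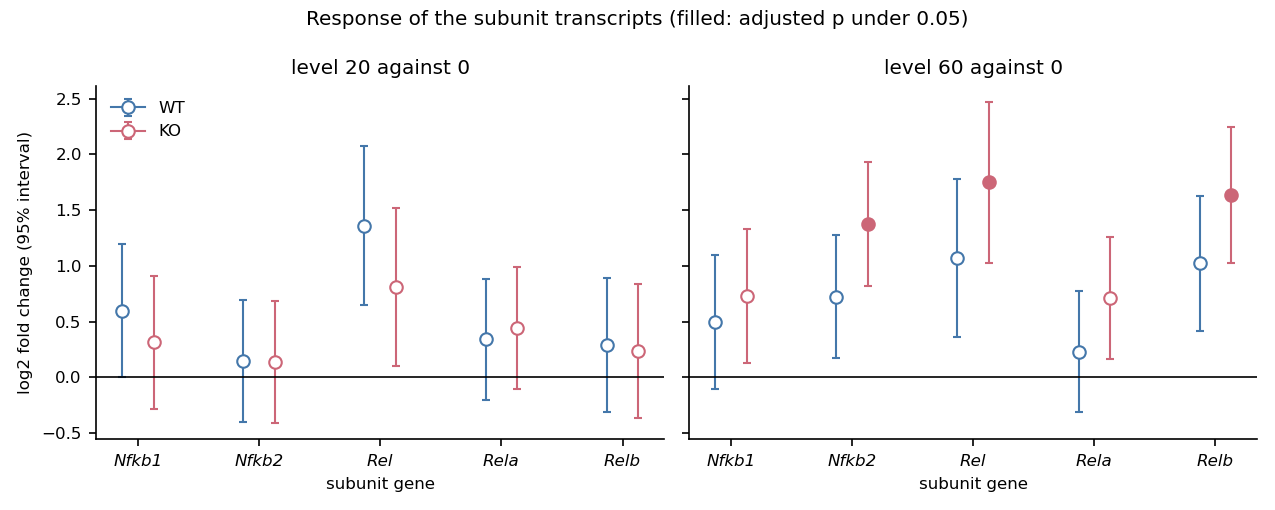
Log2 fold change of each subunit at 20 (left) and 60 (right) against 0, with its 95% interval from the edgeR fit, for WT and KO. Filled points have an adjusted p under 0.05 and are Nfkb2 (1.37), Rel (1.75) and Relb (1.64) in KO at 60.

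In untreated cells, 0 of 5 subunits were called between KO and WT, beside 0.274% of all genes. An unadjusted p under 0.05 was held by 2073 of all 17159 genes and by 1 subunit. This was Nfkb2, with a KO mean of 119.7 ± 19.8 CPM against a WT mean of 180.2 ± 18.2 CPM (SD, n = 3), lower in KO in all 3 numbers and without overlap. Its log2 fold change was −0.59 (95% interval −1.14 to −0.042, edgeR adjusted p = 0.39). At 20 it was −0.60 (−1.15 to −0.055, edgeR adjusted p = 0.61), again without overlap. Groups also did not overlap for Rel at 0, higher in KO with a log2 fold change of 0.50, and for Rela at 20, higher in KO with 0.22. Non-overlap of this kind in CPM held for 13.1% of all genes at 0 and 17.3% at 20. In TPM the groups overlapped for Nfkb2 at 0 and 20, for Rel at 0 and for Rela at 20. At 20, 0 subunits were called, beside 0.21% of all genes. Nfkb2 alone had an unadjusted p under 0.05, beside 1332 of all 17159 genes. DESeq2 called no subunit at 0 or 20, beside 1.52% and 0.695% of all genes. The exact permutation test of 3 against 3 libraries cannot give a two-sided p under 0.1, which it gave for these 4 comparisons.

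At 60, 0 subunits were called between KO and WT by edgeR, beside 0.262% of all genes. An unadjusted p under 0.05 was held by 3 subunits, beside 1849 of all 17159 genes. The KO mean of Rel was 134 ± 27.5 CPM and its WT mean 59.4 ± 25.5 CPM (SD, n = 3), a log2 fold change of 1.18 (95% interval 0.47 to 1.89, edgeR adjusted p = 0.23). For Relb these means were 125 ± 8.30 and 67.6 ± 38.0 CPM, a log2 fold change of 0.88 (0.28 to 1.48, edgeR adjusted p = 0.30). For both, every KO library was above every WT library in CPM, as the groups were apart for 15.2% of all genes in either direction. In TPM the groups overlapped for both genes. There KO number 414, at 15.2 for Rel and 61.3 for Relb, lay below WT number 6110, at 16.1 and 71.3. DESeq2 called Rel (1.17, adjusted p = 0.044), beside 1.35% of all genes. Without WT at 60 number 6110, the highest WT library, Relb was called in edgeR (1.47, adjusted p = 0.0045).

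The other subunits at 60 had log2 fold changes of 0.60 for Rela, 0.45 for Nfkb1 and 0.06 for Nfkb2, with edgeR adjusted p of 0.42, 0.58 and 0.96. Within numbers, KO was above WT in all 3 pairs for Nfkb1, Rel, Rela and Relb at 60. Over the 3 levels KO was above WT in 8 of 9 pairs for each of these 4 genes, and in 2 of 9 for Nfkb2. The 9 pairs come from 3 numbers and are not independent. By the check of deviations given with the processing, KO and WT were paired by number at 60 but not at 0 or 20. The share of all genes with such pair counts was not determined, so these counts are a description and not a result about the subunits.

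**Figure D4:**
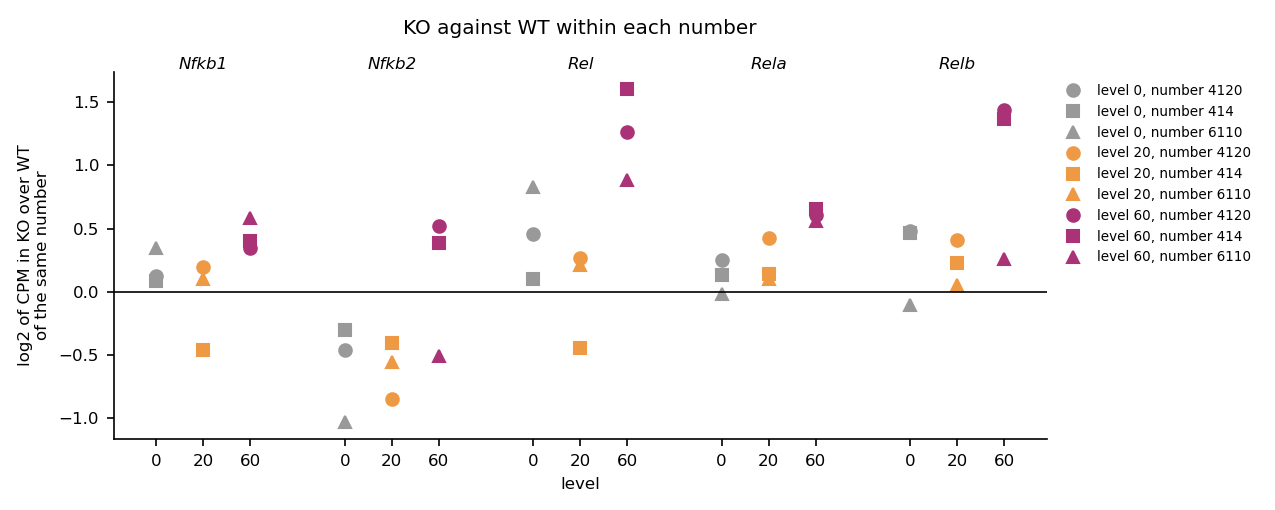
Log2 ratio of CPM in KO over WT within each number, by subunit and level. At 60 the ratios of Rel lie between 0.89 and 1.61 and those of Rela between 0.56 and 0.65, while all ratios of Nfkb2 at 0 and 20 are below 0.

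Markers of other myeloid cells are given as sums beside these values. The 8 neutrophil markers, of which 7 passed the filter, summed to 7.00 to 25.2 CPM in KO libraries and 0 to 4.78 CPM in WT libraries, and Elane had no count in any WT library. The 7 macrophage markers, of which 4 passed, summed to 6.82 to 10.9 CPM in KO at 0, 6.07 to 11.1 CPM at 20 and 12.2 to 25.8 CPM at 60, so KO at 60 lay above KO at 0 without overlap. In WT they summed to 3.66 to 6.40 CPM at 0, 5.15 to 6.64 CPM at 20 and 7.50 to 8.28 CPM at 60, below KO without overlap at 0 and 60. Itgam, an integrin gene on this list, was called between KO and WT at 0 (log2 fold change 4.70, edgeR adjusted p = 0.033), beside 0.274% of all genes. This value rests on 3 reads in all WT libraries at 0 and 101 in KO. Its log2 fold change was 1.28 at 20 and 2.23 at 60, neither called. None of the 4 tested macrophage markers was called in KO at 60 against 0. There 1 had an unadjusted edgeR p under 0.05, beside 2433 of all 17159 genes. The mitochondrial share at 60 was 14.5% ± 17.5 in KO and 22.2% ± 17.5 in WT (SD, n = 3). The part of these cells and of this share in the subunit values was not tested.

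Whether the genotypes responded differently was tested by the difference of the 2 log2 fold changes, KO minus WT. At 60 it was 0.68 for Rel (95% interval −0.32 to 1.67), 0.65 for Nfkb2 (−0.12 to 1.42), 0.61 for Relb (−0.23 to 1.46), 0.48 for Rela (−0.29 to 1.25) and 0.24 for Nfkb1 (−0.61 to 1.08). With 1 library left out these values ranged from 0.38 to 1.03 for Rel, 0.38 to 1.01 for Nfkb2 and 0.37 to 1.18 for Relb, each highest without WT at 60 number 6110. They were lowest without WT at 60 number 414 for Rel and number 4120 for Nfkb2 and Relb. At 20 it was −0.55 for Rel (−1.55 to 0.44), −0.28 for Nfkb1, −0.05 for Relb, −0.01 for Nfkb2 and 0.10 for Rela. None of the 5 subunits passed at either level in edgeR or DESeq2 or had an unadjusted p under 0.05. Over all genes, 0% passed at 20 and 0% at 60 in edgeR, where 67 and 187 genes had an unadjusted p under 0.05. DESeq2 called 0.00584% and 0.0117%. The calls of Rel, Relb and Nfkb2 in KO at 60 are therefore not shown to differ from the WT response, and the intervals for these 3 genes reach a difference of 1.42 to 1.67.

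The other genes of the pathway were described by list. Of 12 IkB proteins and other inhibitors, all tested, 4 rose at 20 in WT and 4 in KO by edgeR, beside 0.6% and 0.449% of all genes. These were Nfkbid (log2 fold change 5.17 in WT and 5.69 in KO), Nfkbia (3.68 and 4.26), Nfkbiz (3.69 and 3.65) and Tnfaip3 (3.34 and 2.84), which encode atypical and classical IkB proteins and the ubiquitin-editing protein A20. At 60 edgeR called 1 inhibitor in WT, Nfkbid (2.30), beside 0.221% of all genes, and 5 in KO, including Nfkbid (4.23), Nfkbia (2.99), Nfkbie (1.60) and Nfkbiz (1.85), beside 2.54%. DESeq2 called 3 in WT (Nfkbia, Nfkbid and Nfkbie), beside 1.74% of all genes, and 5 in KO, beside 6.12%. From 20 to 60 Nfkbid, Nfkbiz and Tnfaip3 fell in WT in edgeR, by 2.88, 2.83 and 2.77, beside 0.443% of all genes called, and Nfkbiz fell in KO by 1.80, beside 1.11%. In KO the values of Tnfaip3 and Nfkbid over that step were −2.02 and −1.46 (edgeR adjusted p = 0.11 and 0.14), and DESeq2 called both there. DESeq2 called 5 inhibitors between 20 and 60 in WT and 4 in KO, beside 2.23% and 3.4% of all genes. No inhibitor was called in the difference between the genotypes' responses by either tool. There 3 had an unadjusted edgeR p under 0.05 at 60, beside 187 of all 17159 genes, and 0 at 20, beside 67.

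Of 16 known targets, 14 were tested, and edgeR called 7 that rose at 20 in WT and 8 in KO, beside 0.6% and 0.449% of all genes. Tnf was 6.46 ± 3.71, 717 ± 317 and 34.1 ± 29.9 CPM in WT at 0, 20 and 60 and 2.87 ± 0.902, 1021 ± 306 and 99.1 ± 24.0 CPM in KO (SD, n = 3). Il6 was 7.23 ± 1.81, 176 ± 78.0 and 28.6 ± 12.2 CPM in WT and 8.06 ± 0.837, 207 ± 98.9 and 109.8 ± 18.9 CPM in KO. At 60, Ptgs2, the prostaglandin synthase gene, was the 1 target called in WT by edgeR (3.11), beside 0.221% of all genes. In KO 8 rose, beside 2.54%, including Ptgs2 (5.12), Il6 (3.77), Ccl3 (3.56) and Tnf (5.10), and Irf1 fell by 0.80. DESeq2 called 7 targets in WT at 60 (Ccl3, Ccl4, Gadd45b, Il6, Irf1, Ptgs2 and Tnf), beside 1.74% of all genes, and 9 in KO, beside 6.12%. No target was called by either tool in the difference between the responses. There 4 had an unadjusted edgeR p under 0.05 at 60, beside 187 of all 17159 genes, and 1 at 20, beside 67. The median log2 fold change of the targets was 3.85 at 20 in WT and 3.98 in KO, against 0.34 and 0.31 for the 5 subunits, with the median of all genes between −0.028 and 0.0011 in these comparisons. At 60 it was 1.86 for targets and 0.72 for subunits in WT, and 3.38 and 1.37 in KO.

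None of the 21 upstream kinases and adaptors and none of the 12 coregulators were called in any of the 11 comparisons by edgeR. In KO at 60 against 0, 6 kinases and adaptors and 1 coregulator had an unadjusted edgeR p under 0.05, beside 2433 of all 17159 genes. The smallest p there belonged to the adaptor gene Traf2 (log2 fold change 0.74, edgeR adjusted p = 0.052). DESeq2 called 2 of these 33 genes there, Malt1 and Traf2, beside 6.12% of all genes. It also called Malt1 in WT at 60 against 0, beside 1.74%. In KO at 60 against 20 it called Malt1, Traf2, Traf6 and Hdac1, beside 3.4%. Between KO and WT no member of these 4 lists was called at any level by edgeR, and Il6 at 60 came nearest (1.94, edgeR adjusted p = 0.058). DESeq2 called Ccl3, Ccl4, Il6 and Ptgs2 between KO and WT at 60, beside 1.35% of all genes, and Hdac1 at 0, beside 1.52%. All of these lists were described by counts and medians and not tested as sets.

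**Figure D5:**
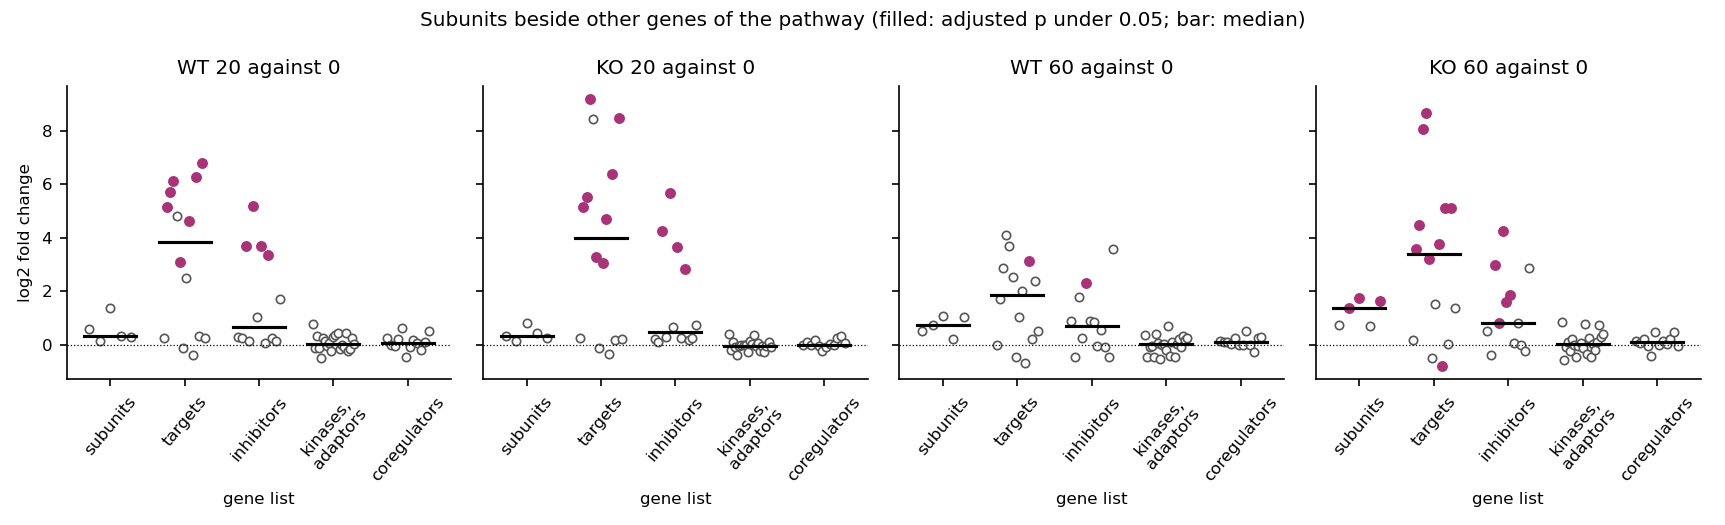
Log2 fold change of each gene of the NF-kB lists at 20 and 60 against 0 in each genotype, with filled points for an adjusted p under 0.05 and a bar at the list's median. The subunits lie well below the called targets at 20, and in KO at 60 their median is 1.37 beside 3.38 for the targets.

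The subunits did not all vary together over the 18 libraries. On the log2 CPM scale Nfkb1 and Rel had the highest Pearson r of any pair (0.88), followed by Rel and Rela (0.81), Nfkb1 and Rela (0.80), Rel and Relb (0.73) and Nfkb2 and Relb (0.72). Nfkb2 was least like Rela (0.15) and Nfkb1 (0.32). The 18 libraries share groups, numbers and differences in mitochondrial share, so these values are descriptions.

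Among 9340 other protein-coding genes that averaged 5 CPM or more, the 3 most like each subunit were found by Pearson r over the 18 libraries. They were Mex3c (0.95), Ero1l (0.94) and Rcan1 (0.94) for Rel, and Isy1 (0.94), Prkd2 (0.94) and Ints12 (0.93) for Relb. For Nfkb2 they were Map2k3 (0.96), Plekhj1 (0.93) and Faah (0.93), for Nfkb1 Litaf (0.96), Plekho2 (0.95) and Cd93 (0.93), and for Rela Hspa5 (0.96), Sec61a1 (0.95) and Tle1 (0.95). Rcan1, a calcineurin inhibitor gene, was at 8.73 ± 4.67, 54.2 ± 21.0 and 56.6 ± 48.5 CPM in WT at 0, 20 and 60 and at 10.8 ± 5.32, 49.4 ± 3.31 and 202 ± 87.0 CPM in KO (SD, n = 3). Map2k3, a MAP kinase kinase gene, was like Nfkb2 lower in KO than WT at 0 (305 ± 70.5 and 412 ± 54.2 CPM) and near it at 60 (655 ± 124 and 649 ± 132 CPM). Hspa5, an endoplasmic reticulum chaperone gene, was at 495 ± 156 CPM in WT at 0 and 1068 ± 425 CPM in KO at 60.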

How the data were processed

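The authors deposited 1 table of 45777 genes with a raw read count, an FPKM and a TPM value per gene and library, per the file headers. HISAT2 2.1.0 and StringTie 2.1.3b, beside bcl2fastq 2.20.0 and FastQC 0.11.7, and the build mm10 are listed in the submitters' processing notes, and the counting strand is not given in the sources used here. The deposited counts were tested. The deposited TPM served for levels between genes and for alternatives, and the FPKM were not used.

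Genes were kept by filterByExpr (17159) and scaled with TMM factors. In edgeR 4.0.16 (R 4.3.3) the 18 libraries shared 1 quasi-likelihood fit with 6 group means, with Benjamini-Hochberg adjustment over all genes tested. The SE is the absolute log2 fold change over the root of F. Exact permutation tests used the mean of log2(CPM + 0.1) over 20 splits. Genes of mitochondrial DNA (37) were found by their RefSeq chromosome. For likeness the prior count of log2 CPM was 2. No library was a copy of another of its group, and the scripts were tested on simulated data.

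Named genes are the 5 subunits, the 3 genes most like each, and from each list up to 4 called genes per comparison by smallest p, or else the gene of smallest p. Irf1, Psd, the other overlapping genes, genes called by DESeq2 alone and the genes whose group means are printed were picked after their values were seen. The subunits and lists were chosen with earlier results of these data known.

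The main fit held no pairing by number, and the replicate block was an alternative. As a check, same-numbered libraries were labelled paired where their deviations from the group means correlated above 0.1 in all 3 numbers. This held for KO against WT at 60 (0.43 to 0.53), WT 20 against 0 (0.62 to 0.76), KO 20 against 0 (0.40 to 0.58), KO 60 against 0 (0.33 to 0.67) and KO 60 against 20 (0.37 to 0.60). Alternatives were library size alone, no filter, the compared groups only, the replicate block and DESeq2 1.42.0. Shares of DESeq2 calls are over genes to which it gave an adjusted p. Limma 3.58.1 was run with voom and the numbered set as a random effect, and on log2(TPM + 0.1) and log2(TPM + 1). The log2 mitochondrial share as a covariate and each library left out were also alternatives. Leaving out the 5 libraries of mitochondrial share over 20%, or the genes of mitochondrial DNA, was chosen after seeing the data.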

Additional observations from a re-analysis of the deposited data

How the results depend on the processing

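The lowest count of any subunit in a library was 375 reads, and how the calls depend on depth was not tested. Of the counts of called subunits, KO 60 against 0 became 0 with library size alone, TPM + 0.1, TPM + 1 or without the 5 libraries of high mitochondrial share. KO 60 against 20 became 0 under those 4 and 1 without a filter. It was 1 for WT 60 against 0 with the replicate block, DESeq2 and voom (Relb), 1 for WT 20 against 0 with DESeq2 and the mitochondrial covariate (Rel), and 1 for KO against WT at 60 with DESeq2 (Rel). The causes were not tested. With each library left out the count was 2 to 3 for KO 60 against 0, 0 throughout for KO 60 against 20 and 0 to 1 for KO against WT at 60, and it stayed 0 in the other 8 comparisons.

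The replicate block is a pairing by number for KO against WT and by number within genotype otherwise. It raised the called subunits in KO at 60 against 0 to 4 and changed no other call in the paired comparisons. WT 60 against 0, WT 60 against 20 and KO against WT at 0 and 20 share only a number by the check of deviations. There the block called Relb in WT at 60 (0.92, edgeR adjusted p = 0.026), and calls over all genes went from 38 to 486, 76 to 594, 47 to 211 and 36 to 124.

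No called log2 fold change reversed under any alternative run, and the signs that did were of small, uncalled values. The difference in response of Nfkb2 at 20, −0.01, was 0.0024 with library size alone, 0.0074 in the compared groups only, 0.032 with the mitochondrial covariate, 0.0017 with DESeq2, 0.095 without the 5 libraries and 0.0031 without genes of mitochondrial DNA. KO against WT at 20 was 0.073 for Nfkb1 and 0.059 for Rel with library size alone, 0.16 and 0.23 with TPM + 0.1, 0.16 and 0.21 with TPM + 1, and 0.0076 for Rel with voom. With the mitochondrial covariate KO against WT was −0.035 for Nfkb1 and −0.086 for Rela at 0 and −0.030 for Rela at 20. Rela in KO at 60 against 20 was −0.065 with TPM + 0.1 and −0.062 with TPM + 1. Without the 5 libraries Nfkb2 in KO against WT at 60 was −0.12, Rela in WT 60 against 20 was 0.082 and its difference in response at 20 was −0.051.

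With 1 library left out, KO against WT ranged from −0.16 to 0.49 for Nfkb1 at 0, −0.15 to 0.087 for Nfkb1 at 20, −0.24 to 0.33 for Rel at 20 and −0.20 to 0.45 for Nfkb2 at 60. WT 60 against 20 ranged from −0.23 to 0.048 for Nfkb1, −0.66 to 0.090 for Rel and −0.29 to 0.15 for Rela. The difference in response ranged from −0.56 to 0.093 for Nfkb1, −0.14 to 0.069 for Nfkb2, −0.043 to 0.22 for Rela and −0.20 to 0.10 for Relb at 20, and from −0.036 to 0.61 for Nfkb1 at 60.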
